A study of Homo sapiens with 3 samples.

Results

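The genes described here are 8 human genes that lie around binding sites of the transcription factor FOXA2 that ranked highest in both replicates of Caco2 cells: BICC1, TFAM, CDH18, ATG5, ARMC2, BCAT1, UPP2 and ZNF608. They were taken through 7 intervals of the hg19 genome, each a gene with its flanks that holds a site among the 10 best-ranked sites found in both replicates. TFAM and BICC1 share an interval. Outside the intervals, 1 replicate 1 peak and 4 replicate 2 peaks scored above the highest site described here in their own list. The intervals span 2.333 Mb in all and hold 135 of the 63949 replicate 1 peaks and 64 of the 26907 replicate 2 peaks.

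Caco2 is an established human line from a colorectal adenocarcinoma, often taken to stand in for intestinal epithelium and grown here in low-glucose medium with serum. Chromatin immunoprecipitation followed by sequencing uses an antibody to pull down DNA bound by a protein, and the sequenced ends of that DNA (tags) pile up where the protein sat. The study comprises 2 replicate immunoprecipitations with a FOXA2 antibody and 1 library of sonicated chromatin made without antibody, against which the authors called both peak lists. The design holds no second condition, no knockdown and no other cell line, and nothing in the labels ties each replicate to its own culture. Differences between them may thus be technical. The lists hold no expression values, so neither the identity of the cells nor the activity of these genes was checked. The copy number of these regions, which is altered in many tumour lines, was not analysed here.

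FOXA2 is a forkhead protein of the endoderm. It binds DNA through a winged-helix domain, can reach its sites in closed chromatin, and is known for its part in gut, liver and pancreas development. Forkhead proteins can act from promoters and from distant enhancers, so a site near a gene need not act on that gene. The 8 genes have no common pathway. TFAM packages mitochondrial DNA and takes part in its transcription, BCAT1 is the cytosolic branched-chain aminotransferase, and UPP2 is a uridine phosphorylase. ATG5 is conjugated to ATG12 in the growth of autophagosomes, and CDH18 is a type II cadherin known mainly from neurons. BICC1 is a KH-domain RNA-binding protein whose loss causes cystic kidneys, ZNF608 is a zinc finger protein related to ZNF609, and ARMC2 is an armadillo repeat protein needed for the sperm flagellum. In RefSeq's order of named protein-coding genes TFAM and BICC1 are adjacent. ATG5 lies between PRDM1, a transcriptional repressor, and CRYBG1, while ARMC2 lies between FOXO3, another forkhead gene, and SESN1. BCAT1 lies between SOX5 and IRAG2, and UPP2 between ACVR1 and CCDC148. Which of these genes a site acts on was not tested.

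RefSeq promoter windows, 250 bases before to 50 after a gene start, were searched for the forkhead letters TGTTTAC or else TGTTTGC, and for their variants TATTTAC or else TATTTGC, on both strands. Matches of these 4 may overlap. Windows were matched by symbol for 7 of the 8 genes (BICC1 had none), 15 windows in all. Matches stood in 2 of them, or 13.3%, against 12.1% of 35116 windows of all genes, so the members' promoters did not stand apart. The windows are on GRCh38.p14 and could not be placed against the hg19 sites. One of UPP2's windows held a pair of matches, and its upstream 250 bases are shown, 5′ to 3′ on the plus strand of chr2:158101626-158101875 (GRCh38.p14), with the matches in capitals; it is shown because it is the only window with more than 1 match.
UPP2: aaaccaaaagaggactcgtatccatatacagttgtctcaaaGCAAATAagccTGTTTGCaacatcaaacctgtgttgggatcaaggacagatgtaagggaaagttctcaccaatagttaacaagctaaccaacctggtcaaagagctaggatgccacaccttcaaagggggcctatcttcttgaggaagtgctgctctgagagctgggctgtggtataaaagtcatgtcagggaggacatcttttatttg
The first match is TATTTGC on the opposite strand, 209 bases before the gene start, and the second is TGTTTGC, 198 bases before it. The other window with a match was one of BCAT1's, where TATTTGC spans the gene start.

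Each interval had 1 site above all its others in both replicates, from 2.21 times the second-ranked at ZNF608 to 19.6 times at BCAT1 by mean score. The weaker sites around it differed from gene to gene. The score of a peak is the authors' tag count scaled to 10000000 tags per library, called normalised tags here. Sites called in both lists, with at least 1 bp in common, are called shared and are given by their replicate 1 positions. The intervals were chosen by the scores of their strongest sites. Those scores, and the folds and shares of summed score that rest on them, are therefore a description with no test. Other values are read beside the same value over the whole lists where that is given. Between them the intervals held 60 shared sites. These were 44.4% of the replicate 1 peaks (95% Wilson interval 36.3% to 52.9%), against 38.1% over the whole list. They were 93.8% of the replicate 2 peaks (85.0% to 97.5%), against 90.5%. The 60 include the 7 strongest sites, which are shared by the rule, so nothing is read from these Wilson intervals. With those sites left out, 41.4% of the replicate 1 peaks were shared, and the replicate 2 share was also slightly lower. The intervals' shares lay close to those of the lists either way.

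**Figure D1:**
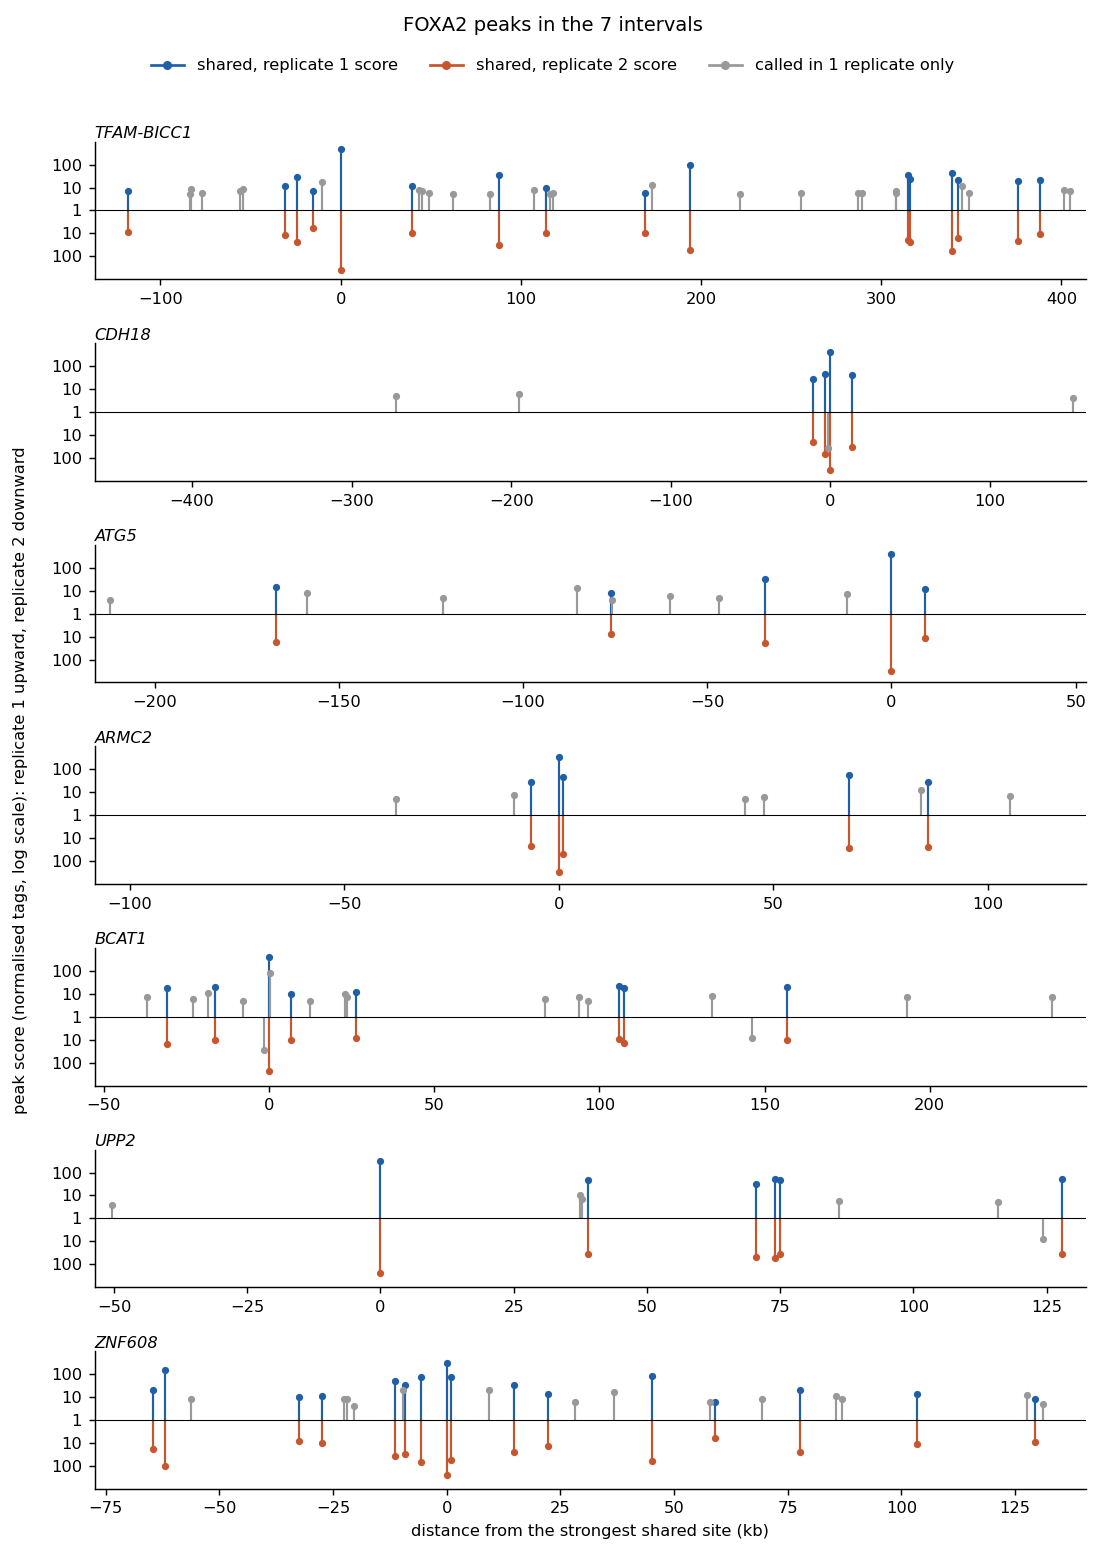
Peaks of each interval, plotted by distance from its strongest shared site in kb (horizontal) and by score in normalised tags on a log scale (vertical), with replicate 1 upward and replicate 2 downward. Coloured stems are shared sites and grey stems are peaks called in 1 replicate only. Each panel spans its whole interval, and a single stem stands above the rest in all 7.

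The interval of TFAM and BICC1, chr10:60095000-60639000, held the best-ranked shared site of the genome. At chr10:60228467-60228589 it scored 500 in replicate 1 and 394 in replicate 2 (mean 447 ± 75.0, SD, n = 2). Nothing else in these 544 kb came near it. The next shared site, 193.7 kb away at chr10:60422212-60422334, scored 92 and 55 (73.5 ± 26.2), so the strongest site was 6.08 times higher by mean score. The third, at chr10:60567747-60567869, scored 44 and 60 (52.0 ± 11.3) and was thus higher in replicate 2. The fourth, at chr10:60316383-60316505, scored 37 and 32 (34.5 ± 3.54).

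Around TFAM and BICC1 the sites were spread over a long interval. With 100 kb on each side the strongest site had 5 other shared sites, the median of the 7 strongest sites. The interval held 16 shared sites over 506 kb, and the 15 besides the strongest ranged from 6 to 92 in replicate 1 and from 6 to 60 in replicate 2. A group of 6 of them stood at the far end from the strongest site, between 314.9 kb and 388 kb away, and included a pair 0.933 kb apart. All 16 replicate 2 peaks were shared, while 25 of the 41 replicate 1 peaks were not. Those 25 were weak, with a median of 6 and a highest value of 17, at chr10:60218126-60218248. Whether a site belongs to TFAM or to BICC1 cannot be read from the peak lists.

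BCAT1, which transfers the amino group of leucine, isoleucine and valine in the cytosol, had the strongest site with the widest gap between replicates. In chr12:24858000-25152000 the site at chr12:24907752-24907874 scored 407 and 241 (324 ± 117, n = 2). The other 7 shared sites were all weak, from 10 to 22 in replicate 1 and from 8 to 15 in replicate 2. Next in rank came chr12:24876858-24876980 with 18 and 15, chr12:25015253-25015375 with 19 and 14, and chr12:24891255-24891377 with 21 and 10. The strongest site was therefore 19.6 times the next by mean score, the widest such gap of the 7 intervals. This gap depends on where the interval ends: a shared site with a mean score of 39.5 lay outside it but within 100 kb, and against that one the fold was 8.20.

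Beside the BCAT1 site stood strong peaks that only a single list held. Replicate 1 had a peak of 78 at chr12:24908118-24908240, centred 0.366 kb from the strongest site. Replicate 2 had a peak of 27 at chr12:24906119-24906269, 1.62 kb away on the other side. Both distances exceed the lists' limits on how close peaks may be called, 244 bp and 300 bp, but both fall inside the 10000 bp around a peak over which the caller asked for a 4-fold excess. The part of that filter in these calls was not tested. The remaining 13 peaks found in replicate 1 alone scored at most 11, and the other replicate 2 peak scored 8.

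UPP2, which splits uridine into uracil and ribose phosphate, had a strong site that stood alone and a separate group of medium ones. In chr2:158863000-159043000 the strongest site, chr2:158913592-158913714, scored 328 and 239 (283.5 ± 62.9, n = 2), and its nearest shared neighbour lay 39.0 kb off. That neighbour, at chr2:158952556-158952678, scored 49 and 36. Second in rank was chr2:158987574-158987696 with 53 and 52 (52.5 ± 0.707), 74.0 kb from the strongest site. It formed a pair with chr2:158988604-158988726, which scored 45 and 34 and lay 1.03 kb from it. The site at chr2:159041549-159041671 scored 50 and 35. No shared site of this interval was weak: the 5 besides the strongest ranged from 33 to 53 in replicate 1 and from 34 to 52 in replicate 2, so that their lowest scores exceeded the highest such scores of ATG5 and BCAT1 in both replicates. Peaks of a single list reached 10 in replicate 1, at chr2:158950982-158951104, and 8 in replicate 2, at chr2:159037820-159037970.

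ATG5, part of the autophagy conjugation machinery, had 1 site far above the few others of its interval. In chr6:106582000-106845000 the strongest site, chr6:106795219-106795341, scored 395 and 304 (349.5 ± 64.3, n = 2). The second, chr6:106760859-106760981, scored 31 and 20 and lay 34.4 kb away. Then came chr6:106628287-106628409 with 15 and 18 and chr6:106804316-106804438 with 12 and 11. The strongest site thus scored 13.7 times the second by mean score and held 84.9% ± 1.04 (SD, n = 2 replicates) of the summed score of the 5 shared sites. The 8 peaks in replicate 1 alone scored between 4 and 13, the highest at chr6:106709778-106709900, and replicate 2 added none. The fold of 13.7 depends on where the interval ends. A shared site with a mean score of 32.5 lay outside it but within 100 kb, and against that one the fold was 10.8. With 100 kb on each side the strongest site had 5 other shared sites, the median of the 7 strongest sites.

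CDH18, a cell adhesion gene, had the shared sites of its long interval in a short stretch. One of its RefSeq promoter windows lies at chr5:20575664-20575963 on GRCh38.p14. The interval may thus leave out part of the gene, but that window was not placed on hg19. In chr5:19423000-20038000 the strongest site, chr5:19880983-19881105, scored 399 and 345 (372 ± 38.2, n = 2). Its neighbours were chr5:19877466-19877588 with 47 and 69 (58.0 ± 15.6), chr5:19894787-19894909 with 41 and 32, and chr5:19870262-19870384 with 28 and 21. These 4 shared sites covered 24.5 kb of 615 kb. The rest of the interval held 3 replicate 1 peaks of 4 to 6, the highest at chr5:19685817-19685939, and none of replicate 2. Within the stretch, replicate 2 had a peak of 37 at chr5:19879293-19879443, 1.68 kb from the strongest site, that replicate 1 lacked.

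The interval of ARMC2 held 5 shared sites. Those besides the strongest were of medium strength, and 1 of them was its close partner. In chr6:109120000-109345000 the site at chr6:109225167-109225289 scored 347 and 291 (319 ± 39.6, n = 2). Its partner 1.01 kb away, chr6:109226173-109226295, scored 48 in each replicate. The third site, chr6:109292678-109292800, scored 55 and 27 (41.0 ± 19.8) and was the only one of the 5 to differ by more than 2-fold between replicates. The fourth, chr6:109311071-109311193, scored 29 and 25. None of the 6 peaks found in replicate 1 alone passed 13, the score of the one at chr6:109309652-109309774.

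ZNF608 lay in the densest field of FOXA2 sites of the 7 intervals. In chr5:123923000-124135000 the strongest site, chr5:123997392-123997514, scored 302 and 255 (278.5 ± 33.2, n = 2). It was not isolated by strength. The second, chr5:123935473-123935595, scored 154 and 98 (126 ± 39.6), which left the strongest site 2.21 times higher by mean score, the smallest such gap of the 7. Further sites were chr5:123991786-123991908 with 76 and 69, chr5:124042589-124042711 with 80 and 64, and chr5:123998262-123998384 with 75 and 57. The last of these lay 0.870 kb from the strongest site. In all 16 shared sites stood in 212 kb, and the strongest held 34.1% ± 0.977 of their summed score (SD, n = 2 replicates), against 56.1% to 84.9% in the other 6 intervals. Every replicate 2 peak was shared, and the 14 peaks of replicate 1 alone reached 20, at chr5:123987771-123987893 and at chr5:124006679-124006801.

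**Figure D2:**
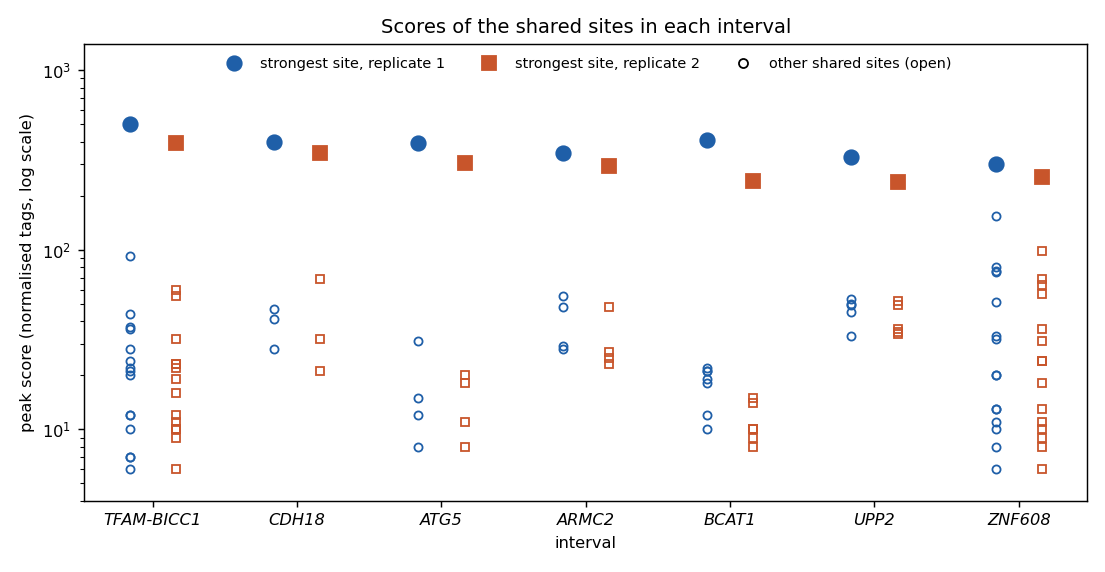
Score of each shared site (vertical, normalised tags, log scale) by interval (horizontal), with replicate 1 as blue circles and replicate 2 as orange squares. The filled symbols, the strongest sites, run from 302 to 500 in replicate 1 and from 239 to 394 in replicate 2, above every open symbol, the highest of which are 154 and 98 at ZNF608.

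Counts of strong secondary sites were small, and the intervals also differ in how many other sites they hold. Of the 60 shared sites, 15 had a mean score of at least 50, but 7 of those are the sites that chose the intervals. Over the whole lists 8.09% of shared sites reached that score. The other 8 were 4 of 15 sites besides the strongest at ZNF608, 2 of 15 at TFAM and BICC1, 1 of 3 at CDH18 and 1 of 5 at UPP2. None of the 4 at ATG5, the 4 at ARMC2 or the 7 at BCAT1 reached it. The second sites of UPP2 and ARMC2 lay on either side of this limit with mean scores of 52.5 and 48. No difference between the genes is read from such small counts. Across the intervals the 53 shared sites besides the strongest had a median of 22 in replicate 1 (interquartile range 12 to 44) and 20 in replicate 2 (10 to 34). All shared sites of the lists had medians of 16 (10 to 28) and 13 (8 to 22).

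The number of sites per length varied more than 10-fold between the intervals, which themselves run from 180 kb at UPP2 to 615 kb at CDH18. The range was narrower in equal windows of 100 kb on each side of the strongest sites, with 3 to 14 other shared sites. Without the strongest sites, the intervals held 22.7 shared sites per Mb, against 8.59 per Mb that holds any peak in the whole lists. ZNF608 had 70.8 per Mb, and UPP2, TFAM-BICC1 and BCAT1 had 27.8, 27.6 and 23.8. ARMC2 had 17.8 and ATG5 15.2. CDH18, with the longest interval, had 4.88, below the level of the whole lists. The high level of the whole set is therefore not common to all its members. ZNF608 and TFAM-BICC1 each supplied 15 of the 53 sites, but from intervals of 212 kb and 544 kb. Per length, TFAM-BICC1 was thus close to UPP2 and BCAT1, and only ZNF608 stood well above the rest. Sites also lay close together: 34 of the 60, or 56.7% (95% Wilson interval 44.1% to 68.4%), had another shared site within 10 kb, against 39.0% of all shared sites. By gene the counts were 11 of 16 at ZNF608, 7 of 16 at TFAM and BICC1, 4 of 6 at UPP2, 4 of 8 at BCAT1, 3 of 4 at CDH18, 3 of 5 at ARMC2 and 2 of 5 at ATG5. The 60 include the 7 strongest sites, and close sites count each other, so nothing is read from the Wilson interval. Close neighbours also stood at other strong sites. The nearest shared site lay a median of 6.69 kb from the 7 strongest sites (0.870 to 39.0 kb). For the other 93 of the 100 best-ranked shared sites this median was 9.89 kb (0.342 to 192 kb). These distances are another measure than the share within 10 kb, which is not given here for the 93.

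The members' strongest sites were set beside other sites of similar rank to see whether their surroundings differ. With 100 kb on each side, the 7 strongest sites had 3 to 14 other shared sites around them, with a median of 5. The other 93 of the 100 best-ranked shared sites had 0 to 14, with a median of 4. The 7 thus fell inside the range of the other strong sites in number of neighbours, with ZNF608 at its upper end. CDH18, with the fewest of the 7, lay within the middle range of the others (quartiles 2 and 7). By mean score the 7 stood 2.21 to 13.0 times above the next site in that window. The others stood 0.631 to 28.6 times above theirs, over the 88 that had one. This fold rests on the scores that chose the 7, so nothing is read from it.

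**Figure D3:**
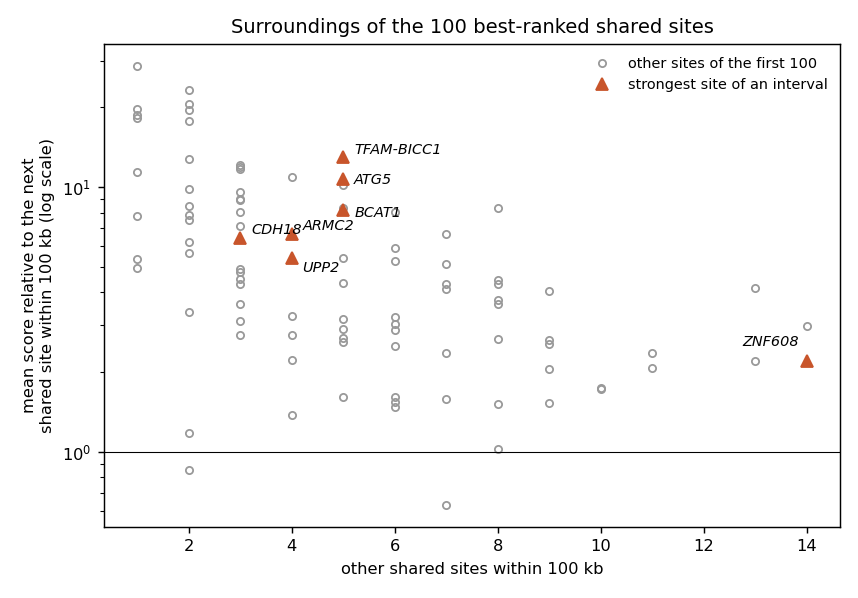
For the 100 best-ranked shared sites, the number of other shared sites within 100 kb (horizontal) and the mean score relative to the highest of them (vertical, log scale). Triangles are the 7 strongest sites of the intervals, from 3 neighbours at CDH18 to 14 at ZNF608, and open circles are the others that have a neighbour.

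Where the rule drew its line, the scores form a continuum. The last site inside it is that of ZNF608, number 10 by mean rank with a mean score of 278.5. The eleventh, at chr3:149119491-149119613, scored 278 and 262 (270 ± 11.3, n = 2). Mean score does not follow mean rank strictly. Numbers 12 and 14 by mean rank had mean scores of 289.5 and 302, above those of UPP2 (283.5) and ZNF608. The other 3 of the first 10 by mean rank lie outside the intervals: chr15:69887099-69887221 with 379 and 257, chr11:116679078-116679200 with 339 and 259, and chr15:70432958-70433080 with 296 and 260.

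Replicate 1 gave the higher score at most sites of the intervals, as it did elsewhere. Besides the strongest sites, 37 of 53 scored higher in replicate 1, 9 scored higher in replicate 2 and 7 were equal. Over all shared sites 63.7% scored higher in replicate 1 and 29.7% in replicate 2. Dividing the replicate 1 score by that of replicate 2 gave a median ratio of 1.18 over the 53 and 1.20 over all 24345. Its SD between sites, on the log2 scale, was 0.43 over the 53 and 0.62 over all. The ratios are approximate, since the lists' peaks differ in width (123 bp and 151 bp).

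**Figure D4:**
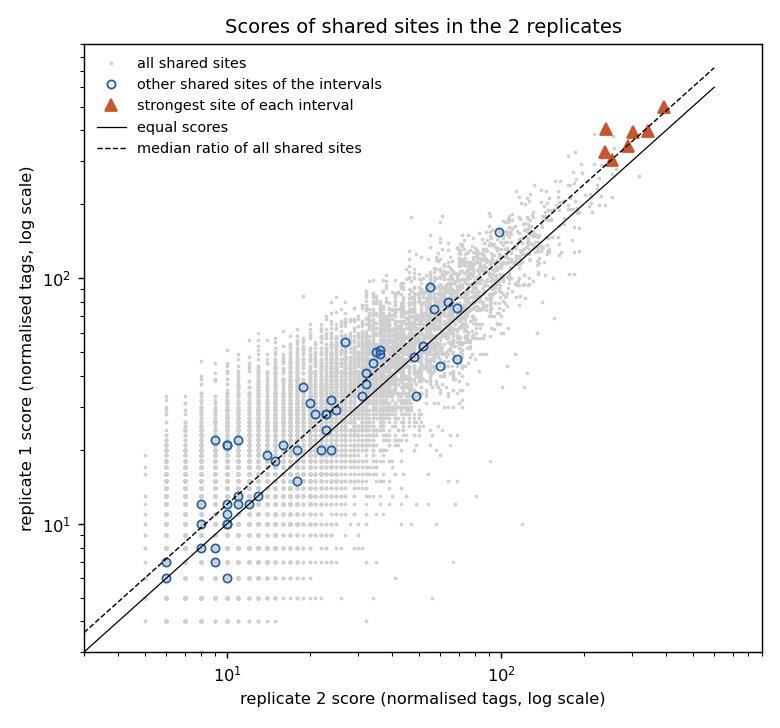
Replicate 1 against replicate 2 scores of shared sites (both in normalised tags, log scales), with all sites in grey, those of the intervals as open circles and the 7 strongest as triangles. The solid line marks equal scores and the dashed line the median ratio of all shared sites, 1.20, and the triangle farthest above it is BCAT1 with 407 against 241.

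BCAT1 stood apart among the strongest sites in its replicate ratio. Its ratio was 1.69 (95% interval from counting error alone 1.50 to 1.90). For CDH18 it was 1.16 (1.04 to 1.28), for ZNF608 1.18 (1.05 to 1.34) and for ARMC2 1.19 (1.07 to 1.33). TFAM-BICC1 had 1.27 (1.15 to 1.40), ATG5 1.30 (1.17 to 1.45) and UPP2 1.37 (1.22 to 1.55). The order of these 6 is within counting error between neighbours, and the lower bound of BCAT1 exceeds the upper bound of all of them except UPP2. Among 267 sites with scores of 100 or more in each replicate, 9 had a ratio above that of BCAT1. Its weaker sites ran the same way: 6 of 7 were higher in replicate 1 and 1 was equal, with a median ratio of 1.50. In the other intervals that median lay between 1.04 at ATG5 and 1.32 at UPP2. With 2 replicates, differences between genes in this ratio have no replicate check of their own.

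Some sites went the other way. At CDH18 the second site had a ratio of 0.681 (0.526 to 0.882), and at UPP2 the site at chr2:158984080-158984202 scored 33 and 49, a ratio of 0.673 (0.495 to 0.915). The third site of TFAM and BICC1 had 0.733 (0.559 to 0.963). These are all of the 53 sites whose counting interval lies wholly below 1, 3 in number, and 4.69% of all shared sites do so. The members' share was thus near that of the lists.

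Whether a peak of these genes was found in both replicates followed its score. In replicate 1, 6 of 67 peaks below 10 were shared, or 8.96% (95% Wilson interval 4.17% to 18.2%), against 14.0% in the whole list. From 10 to 19 it was 13 of 24, or 54.2% (35.1% to 72.1%), against 59.2%. From 20 to 49 it was 25 of 27 against 93.2%, and from 50 upward 16 of 17 against 99.2%. The 3 peaks of 20 or more that were not shared are the one of 78 beside the BCAT1 site and the pair of 20 at ZNF608. Calls of the lower-depth replicate were mostly shared at any score. In replicate 2 the shared peaks were 8 of 10 below 10 (82.3% in the whole list), 18 of 18 from 10 to 19 (93.1%), 19 of 21 from 20 to 49 (97.0%) and 15 of 15 from 50 upward (96.6%). Of the 4 that replicate 1 lacked, 2 lay within 2 kb of a strongest site, at CDH18 and BCAT1. Apart from the 99.2%, each percentage of the whole lists lay inside the Wilson interval of the members. The classes from 50 upward include the 7 strongest sites, which are shared by the rule, so nothing is read from those classes. Replicate 1 held 26183147 tags and replicate 2 held 15756702, and the caller's immunoprecipitation efficiency was 8.72% and 5.16%. The part of depth, of this efficiency and of peak width in the peaks that replicate 2 lacks was not tested, and a missing call does not show that binding was absent.

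**Figure D5:**
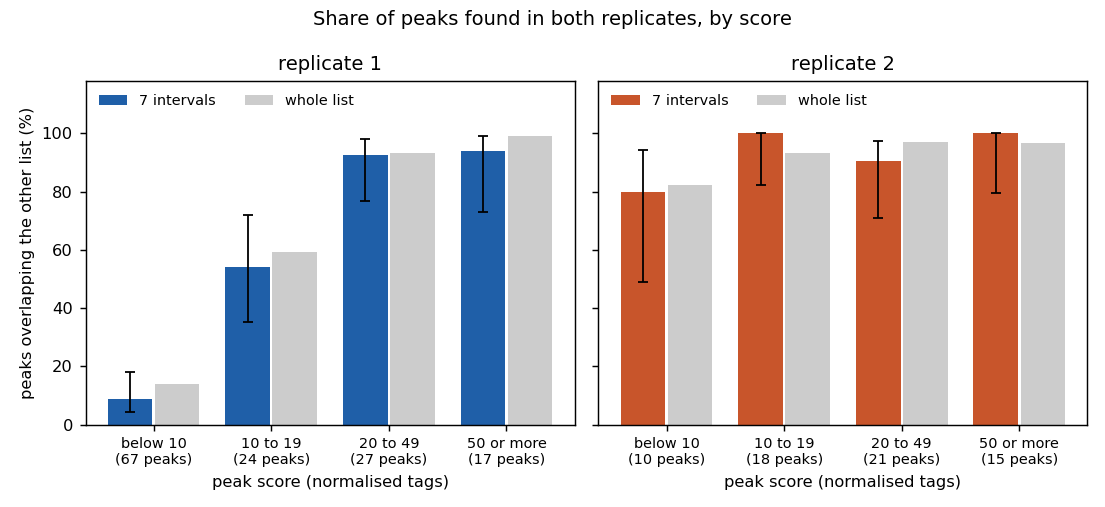
Percentage of peaks that overlap a peak of the other replicate (vertical) by score class (horizontal), for the 7 intervals in colour with 95% Wilson intervals and for the whole lists in grey. In replicate 1 the intervals rise from 8.96% below a score of 10 to 54.2% from 10 to 19. Each grey bar falls inside the often wide interval of the coloured one, except the 99.2% at 50 or more in replicate 1. The classes of 50 or more include the 7 strongest sites, which are shared by the rule.

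Stronger sites were also placed more closely alike by the replicates. The 8 shared sites of the intervals with a mean score of at least 100 had centres a median of 4.5 bp apart, between 1 and 15 bp. The 27 sites from 20 to below 100 differed by a median of 10 bp and at most 37 bp, and the 25 weaker ones by 20 bp and at most 98 bp. Over all shared sites these medians were 7, 11 and 17 bp. The farthest of the weak ones, at 98, 91 and 88 bp, were 2 sites of ZNF608 and 1 of TFAM and BICC1, all with scores of 6 to 11.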

How the data were processed

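Per the submitters' processing notes, reads were aligned to hg19, and Bowtie 1.0.0 and HOMER 1.2 are named. Per the file headers, HOMER findPeaks called factor-style peaks in each replicate against an input library, at a false discovery rate of 0.001, requiring 4 times the input and 4 times the local 10000 bp (Poisson p-value 0.0001 each) and at most 1 tag per position. The deposited score of a peak is the authors' tag count scaled to 10000000 tags and rounded. A unit stands for 2.62 tags in replicate 1 and 1.58 in replicate 2. Scores times these units summed to 0.450% and 0.196% above the headers' tags in peaks.

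Peaks were taken by midpoint within the 7 intervals, and shared sites were ranked by the mean of their 2 score ranks. Named sites are the 4 best-ranked of each interval, those with a mean score of at least 50, and the highest peak of a single replicate. A few others, such as the nearest neighbour of a site, were named after their values were seen. Wilson intervals and those of ratios (Poisson, from approximate tags) cover counting error only. No test was made, since the intervals were chosen by score and both libraries belong to 1 group. Members and lists were chosen with earlier results of these data known. Coordinates are 1-based on hg19. The RefSeq tables used for gene order and promoters are on GRCh38.p14, so gene starts, exons and introns were not placed against sites, sites were not searched for motifs, and related genes were not analysed here. Overlap was tested on simulated data with Python 3.11.15, numpy 2.4.6, pandas 2.3.3 and scipy 1.17.1.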

Additional observations from a re-analysis of the deposited data

How the results depend on the processing

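Of 47 alternatives for 7 results, 37 stayed within 1.5 times (counts and densities) or within the error of the main value. The count of 60 shared sites became 99 when each interval was extended by 100 kb on both sides, and 64 to 135 when a single list was counted. The 25.7 shared sites per Mb became 27.4 to 57.9 with a single list. In both cases the low value leaves out replicate 1 and the high one leaves out replicate 2, because replicate 1 has the longer list. Of the replicate 1 peaks, 75.0% were shared in place of 44.4% when only scores of at least 10 were kept in each list. The strongest sites held 60.8% of the shared sites' summed score, which became 57.8% with midpoints within 500 bp, 62.0% with scores of at least 10, 48.5% in the extended intervals and 53.7% to 58.6% over all peaks of a single list. The percentage of sites with another within 10 kb, 56.7%, became 57.8% without replicate 1 and 77.8% without replicate 2. The 39.0% of all shared sites is no base for these values, since each single list is longer than the list of shared sites. The same percentage over each whole single list is not given here. The median log2 ratio of the replicates moved between 0.241 and 0.263. It and the shared percentages need both lists, so neither replicate could be left out of them. Positions against gene starts, motifs within sites and related genes were not run. No paired analysis was possible because the study has 1 group of replicates. The part of depth in weak peaks was not tested, and positions are not independent replicates.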
